A study of Mus musculus with 9 samples.

Results

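The 10 genes described here encode chaperones, co-chaperones, folding enzymes, degradation factors and 1 transcription factor of the unfolded protein response, the set of signals by which the endoplasmic reticulum (ER) adjusts its folding capacity. They are Hspa5, Hsp90b1, Dnajb9, Sdf2l1, Pdia4, Creld2, Manf, Herpud1, Edem1 and Xbp1, chosen by symbol among the 54532 gene IDs of a liver RNA-seq count table, and each matched 1 gene ID with counts. All 10 were among the 14763 genes with enough counts to test. Livers came from 9 mice labelled as male ApoE-/- on a C57BL/6 background. Such mice lack apolipoprotein E, a ligand that clears lipoproteins from blood. In the HFD + IgG1 group (replicates 5, 6 and 7), mice ate a high-fat diet (4700 kcal per kg, 41% of calories from fat, 43% from carbohydrate, 17% from protein) for 20 weeks from 4 weeks of age, then chow for 1 week, and received 3 mg recombinant human IgG1 intraperitoneally at 25, 26 and 27 weeks. The HFD + PBS group (replicates 3, 4 and 6) had the same feeding and PBS at the same ages, and both groups were killed at 29 weeks. The normal diet group (replicates 4, 5 and 6) did not eat the high-fat diet, and the sources used here do not give its age at death or whether it was injected. By the labels, the knockout is of the whole animal and shared by all 3 groups, so no group with intact Apoe is part of the comparisons. The 3 livers per group were picked by the submitters from Oil Red O staining and triglyceride measurements.

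Depth ran from 16215194 to 18538463 counts per library. Hepatocyte markers made up a large share of every library, from 65735 to 190655 CPM over 11 genes (CPM are counts scaled to a common library size), which fits the liver label. In 3 libraries the counts went against their labels. HFD + IgG1 replicate 5 held 235888 Apoe counts, against 225 to 1655 in the other 8. HFD + PBS replicate 6 and normal diet replicate 5 held 10970 and 17065 Xist counts and 0 counts over 4 Y-linked genes, against 0 to 4 Xist counts and 2837 to 3385 Y-linked counts in the other 7, although all mice were labelled male. The treatment label of HFD + IgG1 replicates 6 and 7 names IgG2 and IgG3, while titles and design place them in the IgG1 group. Results are therefore also given without the 3 discordant libraries, meaning those whose counts went against a label.

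The ER folds the proteins that a cell secretes or places in its membranes, and hepatocytes, which make most plasma proteins, carry a large amount of it. When unfolded proteins accumulate, the sensors IRE1, PERK and ATF6 are released from the chaperone BiP. IRE1 splices Xbp1 mRNA to give an active transcription factor, ATF6 is cut to release another, and PERK slows translation and favours ATF4. The factors made by IRE1 and ATF6 act on short promoter elements, the ER stress response elements, upstream of chaperone and degradation genes. High-fat feeding is often studied for its effect on this pathway in liver.

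Because the genes are known as targets of these elements, their promoters were read in RefSeq windows on GRCm38.p6, from 250 bases before to 50 bases after the RefSeq start, which existed for 9 of the 10 genes (all but Manf). The element ERSE was searched as CCAAT, 9 bases of any kind, then CCACG; ERSE-II as ATTGG, 1 base of any kind, then CCACG; and the XBP1 element as TGACG directly followed by TGG, each on both strands. ERSE was found in 3 of 9 windows (33.3%), Hspa5, Hsp90b1 and Creld2, against 37 of all 27025 gene windows (0.137%). ERSE-II was found in 1 of 9 (11.1%), Herpud1, against 12 of all windows (0.0444%). The XBP1 element was in 0 of 9 and in 193 of all windows (0.714%). The stretches holding the matches are shown 5′ to 3′ on the strand of the gene, with the conserved ends of each element in capitals; in Creld2 and in the second Hsp90b1 match the element lies on the opposite strand, so that its capitals read CGTGG, 9 bases, ATTGG. They lie at chr2:34771995-34772073 (Hspa5, plus strand), chr10:86705503-86705686 (Hsp90b1, minus strand), chr15:88819490-88819568 (Creld2, plus strand) and chr8:94386347-94386417 (Herpud1, plus strand).
Hspa5: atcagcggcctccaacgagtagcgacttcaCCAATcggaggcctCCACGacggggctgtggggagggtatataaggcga
Hsp90b1: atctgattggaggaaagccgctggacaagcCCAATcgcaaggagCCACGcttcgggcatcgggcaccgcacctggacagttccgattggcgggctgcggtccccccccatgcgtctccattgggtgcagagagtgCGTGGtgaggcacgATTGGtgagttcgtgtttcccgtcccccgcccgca
Creld2: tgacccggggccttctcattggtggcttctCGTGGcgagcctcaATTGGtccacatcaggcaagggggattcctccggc
Herpud1: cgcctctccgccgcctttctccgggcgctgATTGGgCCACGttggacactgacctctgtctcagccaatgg
The Hspa5 stretch lies inside the span that GENCODE M21 gives this gene, and the Creld2 and Herpud1 stretches lie just upstream of theirs. Counted from the RefSeq start, the Hspa5 element spans bases -65 to -47 and the Herpud1 element -52 to -42. Hsp90b1 holds a distal element at -212 to -194 and a proximal one at -107 to -89, and Creld2 holds 1 at -126 to -108. A match of letters is a description and not evidence that a factor binds there, and no match says only that these letters are not in this window.

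Across the 9 livers the chaperones were the most abundant of the 10 transcripts. Per kilobase of merged exon, Hspa5 averaged 319 CPM, Hsp90b1 197, Pdia4 146, Herpud1 122 and Xbp1 90.2. Lower levels per kilobase were measured for Creld2 (57.7 CPM), Sdf2l1 (50.1), Edem1 (47), Dnajb9 (42.3) and Manf (33.2). Hspa5 was the highest in each group, with 444 CPM per kilobase in HFD + IgG1, 275 in HFD + PBS and 240 in normal diet livers. The lowest per kilobase was Manf in HFD + IgG1 (44.2 CPM) and in normal diet livers (20.9 CPM), and Dnajb9 in HFD + PBS livers (32 CPM). The Manf level per kilobase depends on a merged exon length of 3524 bases. The ranges over the 9 libraries of all neighbours in this order overlapped.

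Hspa5 (ENSMUSG00000026864, chr2:34771970-34777547 in GENCODE M21 on GRCm38) encodes BiP, also called GRP78, the Hsp70 chaperone of the ER and the protein that holds the stress sensors inactive. Its level was 1265, 1177 and 3188 CPM in HFD + IgG1 replicates 5, 6 and 7, against 1061, 937 and 1486 CPM in HFD + PBS replicates 3, 4 and 6, and 1320, 825 and 897 CPM in normal diet replicates 4, 5 and 6. HFD + IgG1 replicate 7 stood at 2.15-fold the level of the next highest library, HFD + PBS replicate 6, and the other 2 HFD + IgG1 livers lay within the range of the other groups. Hsp90b1 (ENSMUSG00000020048, chr10:86690209-86705509) encodes GRP94, the ER member of the Hsp90 family. It measured 626, 723 and 1198 CPM in HFD + IgG1, 741, 735 and 825 CPM in HFD + PBS, and 711, 765 and 833 CPM in normal diet livers, the narrowest spread of the 10 genes outside replicate 7 (1.33-fold between the highest and the lowest of the other 8 libraries). Replicate 7 was at 1.62-fold the median of the other 8 libraries for Hsp90b1, 2.85-fold for Hspa5 and 4.21-fold for Creld2. Whether such ratios go with the promoter matches of these genes was not tested.

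The BiP co-chaperones showed the same single high library. Dnajb9 (ENSMUSG00000014905, chr12:44205559-44210326), or ERdj4, a J-domain protein that works with BiP on misfolded proteins, had 114, 89.8 and 276 CPM in HFD + IgG1, 60.4, 74.6 and 110 CPM in HFD + PBS, and 119, 71.4 and 54.4 CPM in normal diet livers. Sdf2l1 (ENSMUSG00000022769, chr16:17130138-17132383), a soluble ER protein found in complexes with BiP co-chaperones, had 37, 41.9 and 147 CPM in HFD + IgG1, 56.1, 42.8 and 66.5 CPM in HFD + PBS, and 39.1, 33.1 and 36.1 CPM in normal diet livers. In HFD + IgG1 replicates 5 and 6 Sdf2l1 was below every HFD + PBS liver, so the group mean of 75.2 ± 62 CPM (SD, n = 3) describes none of its libraries.

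Among the folding enzymes and stress-induced soluble proteins, Pdia4 (ENSMUSG00000025823, chr6:47796141-47813430), or ERp72, a protein disulfide isomerase, had 346, 327 and 642 CPM in HFD + IgG1, 280, 266 and 344 CPM in HFD + PBS, and 352, 335 and 256 CPM in normal diet livers. Creld2 (ENSMUSG00000023272, chr15:88819646-88826683), a protein with EGF-like repeats that is induced by ER stress, had 36.1, 64.2 and 255 CPM in HFD + IgG1, 56.8, 43.9 and 92.2 CPM in HFD + PBS, and 65.9, 30.9 and 64.5 CPM in normal diet livers. Manf (ENSMUSG00000032575, chr9:106838312-106891979), a small protein that binds BiP and is secreted under ER stress, had 95.3, 110 and 263 CPM in HFD + IgG1, 116, 91 and 158 CPM in HFD + PBS, and 80.1, 58.1 and 82.7 CPM in normal diet livers. For all of these the highest library was HFD + IgG1 replicate 7, at 1.82-fold (Pdia4), 2.76-fold (Creld2) and 1.66-fold (Manf) the next highest. Manf was the only one of these genes whose 3 HFD + PBS livers, and whose 3 HFD + IgG1 livers, all lay above the 3 normal diet livers. Its annotated exons overlap those of Dcaf1 on the opposite strand by 146 bases, and of Rbm15b on the same strand by 14 bases, so its counts may hold an unknown share of reads of these neighbours.

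Herpud1 and Edem1 belong to ER-associated degradation (ERAD), which returns misfolded proteins to the cytosol for the proteasome. Herpud1 (ENSMUSG00000031770, chr8:94386438-94395377), a membrane scaffold of the Hrd1 ubiquitin ligase complex, had 276, 210 and 909 CPM in HFD + IgG1, 134, 213 and 353 CPM in HFD + PBS, and 216, 133 and 118 CPM in normal diet livers. Replicate 7 was at 4.29-fold the median of the other 8 libraries, the greatest ratio of the 10, and the other 8 libraries themselves spanned 2.98-fold, against 1.66-fold for Edem1. Edem1 (ENSMUSG00000030104, chr6:108828641-108859356), which helps to select misfolded glycoproteins for degradation, had 350, 295 and 459 CPM in HFD + IgG1, 274, 313 and 309 CPM in HFD + PBS, and 270, 251 and 211 CPM in normal diet livers. Like Manf, Edem1 was higher in every HFD + IgG1 and every HFD + PBS liver than in any normal diet liver, although HFD + PBS replicate 3 and normal diet replicate 4, the nearest, stood at 274 and 270 CPM.

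Xbp1 (ENSMUSG00000020484, chr11:5520659-5525893), the transcription factor whose mRNA IRE1 splices, ran another way. It had 252, 318 and 217 CPM in HFD + IgG1, 276, 526 and 341 CPM in HFD + PBS, and 280, 240 and 187 CPM in normal diet livers. HFD + IgG1 replicate 7, the highest library for the 9 other genes, ranked 8 of 9 for Xbp1, at 0.78 of the median of the other 8, and the highest library was HFD + PBS replicate 4. Counts per gene do not separate the spliced from the unspliced Xbp1 mRNA, so IRE1 activity cannot be read from these values.

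**Figure D1:**
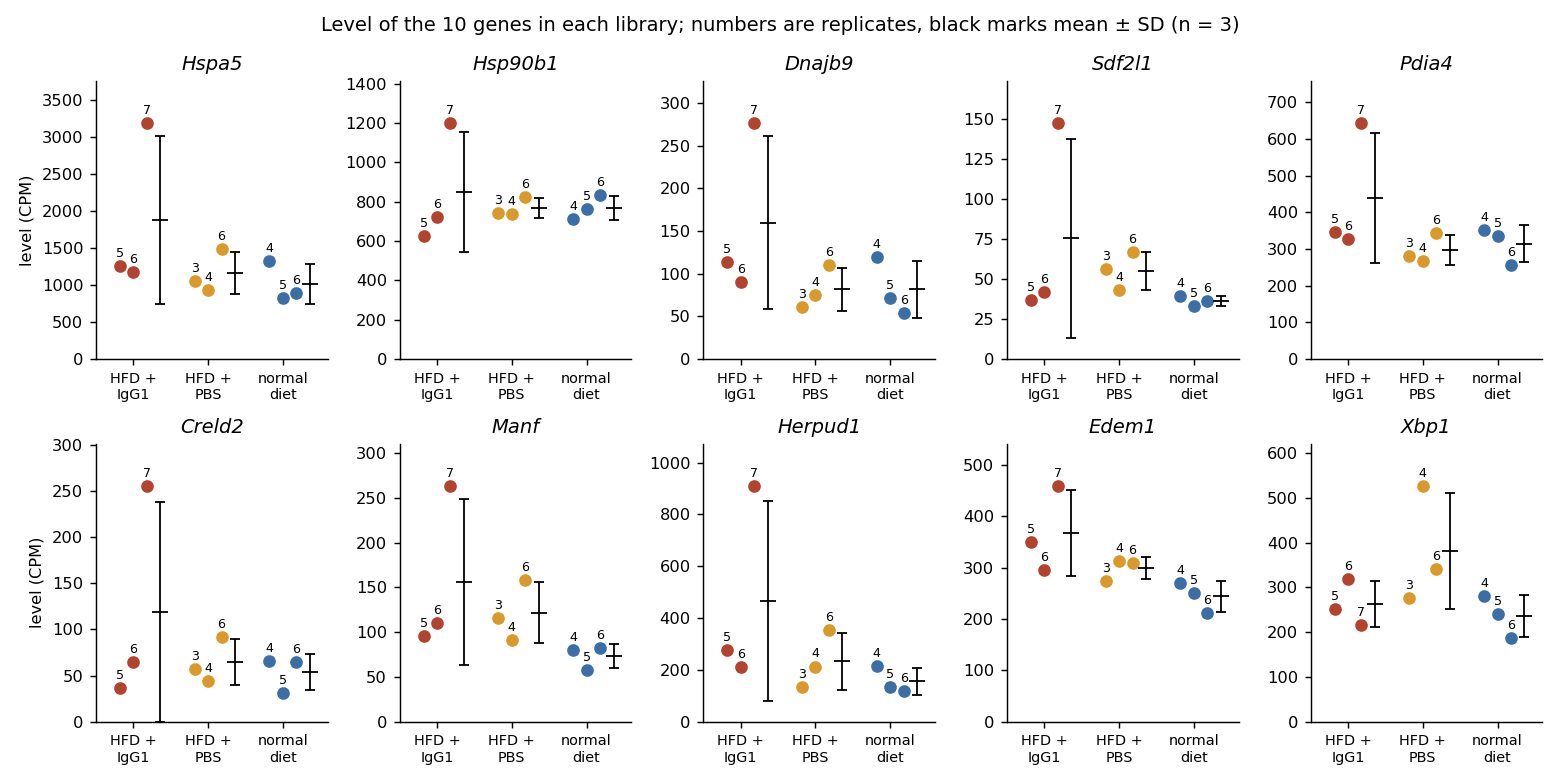
Level of each of the 10 genes in CPM (y axis, linear, from 0) in the 9 livers, by group (x axis); each point is 1 library with its replicate number, and black marks show the group mean ± SD (n = 3). HFD + IgG1 replicate 7 is the highest point in every panel except Xbp1, where HFD + PBS replicate 4 (526 CPM) is.

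HFD + IgG1 replicate 7 was thus the highest of the 9 libraries for 9 of the 10 genes, and for 18% of all genes tested. HFD + PBS replicate 4, the highest for Xbp1, was the highest for 11.4% of all genes. HFD + PBS replicate 6 was the second highest for 6 genes (Hspa5, Herpud1, Manf, Creld2, Sdf2l1 and Xbp1). The lowest library was normal diet replicate 6 for 5 genes, normal diet replicate 5 for 4 and HFD + IgG1 replicate 5 for Hsp90b1. Averaged over the 10 genes as log2 levels relative to the normal diet mean, the livers lay at 0.22, 0.28 and 1.48 in HFD + IgG1, 0.13, 0.20 and 0.63 in HFD + PBS, and 0.27, -0.15 and -0.11 in normal diet. Replicate 7 was singled out after these values were seen. It had 18209121 counts and 5.122% of them from mitochondrial genes, within the range of the 9 libraries (2.921% to 6.306%).

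In the comparison of HFD + IgG1 with HFD + PBS, which asks how the antibody changed the livers of fat-fed mice, none of the 10 genes passed an adjusted p of 0.05 in edgeR's quasi-likelihood test, and neither did any other gene (0% of 14763). At an unadjusted p under 0.05, 0 of the 10 were higher and 0 lower, against 12.6% and 11.6% of all genes. DESeq2 and limma-voom also called 0 of the 10, in this and in both other comparisons, while over the whole table DESeq2 called 1265 genes here and limma-voom 0. Fitted fold changes, called log2 ratios here, were positive for 9 of the 10, with a median log2 ratio of 0.51, against 0.04 over all genes. Herpud1 averaged 465 ± 386 CPM in HFD + IgG1 and 233 ± 111 CPM in HFD + PBS (SD, n = 3 each), which is 1.00 on the log2 scale (SE 0.58, edgeR adjusted p = 0.312). Hspa5 averaged 1877 ± 1137 and 1161 ± 288 CPM in the same groups, a log2 ratio of 0.69 (SE 0.40, edgeR adjusted p = 0.303). The smallest adjusted p belonged to Dnajb9, at 160 ± 101 CPM in HFD + IgG1 and 81.6 ± 25.4 CPM in HFD + PBS, with a log2 ratio of 0.97 (SE 0.46, edgeR adjusted p = 0.231). Xbp1 was the only one with a negative value, at 262 ± 51.6 CPM in HFD + IgG1 and 381 ± 130 CPM in HFD + PBS, a log2 ratio of -0.54 (SE 0.27, edgeR adjusted p = 0.245). The other 6 genes had log2 ratios from 0.15 (Hsp90b1) to 0.88 (Creld2), with edgeR adjusted p-values from 0.235 (Pdia4) to 0.739 (Hsp90b1). For each of the 10 genes the values of the groups overlapped, while 15.3% of all genes lay wholly higher and 11.2% wholly lower in HFD + IgG1.

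Most of these fold changes rested on 1 liver. Without HFD + IgG1 replicate 7, 5 of the 10 were positive and the median was -0.10, with Hspa5 at 0.04, Herpud1 at 0.03, Dnajb9 at 0.29, Creld2 at -0.38 and Sdf2l1 at -0.51 (unadjusted p = 0.0336, edgeR adjusted p = 0.385 for Sdf2l1, the only one of the 10 with an unadjusted p under 0.05). At that unadjusted threshold, 6.86% of all genes were higher and 5.83% lower without replicate 7. The Xbp1 value, which replicate 7 does not carry, was -0.45 without it. Leaving out instead the 3 discordant libraries, which keeps replicates 6 and 7, gave a median of 0.83, with Herpud1 at 1.63, Creld2 at 1.60 and Hspa5 at 1.07, and edgeR adjusted p-values from 0.566 to 0.708 over the 10 genes. The summed hepatocyte markers were 190655, 113693 and 157361 CPM in HFD + IgG1 and 65735, 136210 and 97642 CPM in HFD + PBS. Alb was the largest part of these sums, with 137765 CPM in HFD + IgG1 replicate 5. Fgb ran another way, at 5609 CPM in that liver and 21293 CPM in HFD + PBS replicate 4. What hepatocyte content contributes to the values of the 10 genes was not tested. In bulk tissue, fewer cells of a type and less RNA per cell cannot be told apart.

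**Figure D2:**
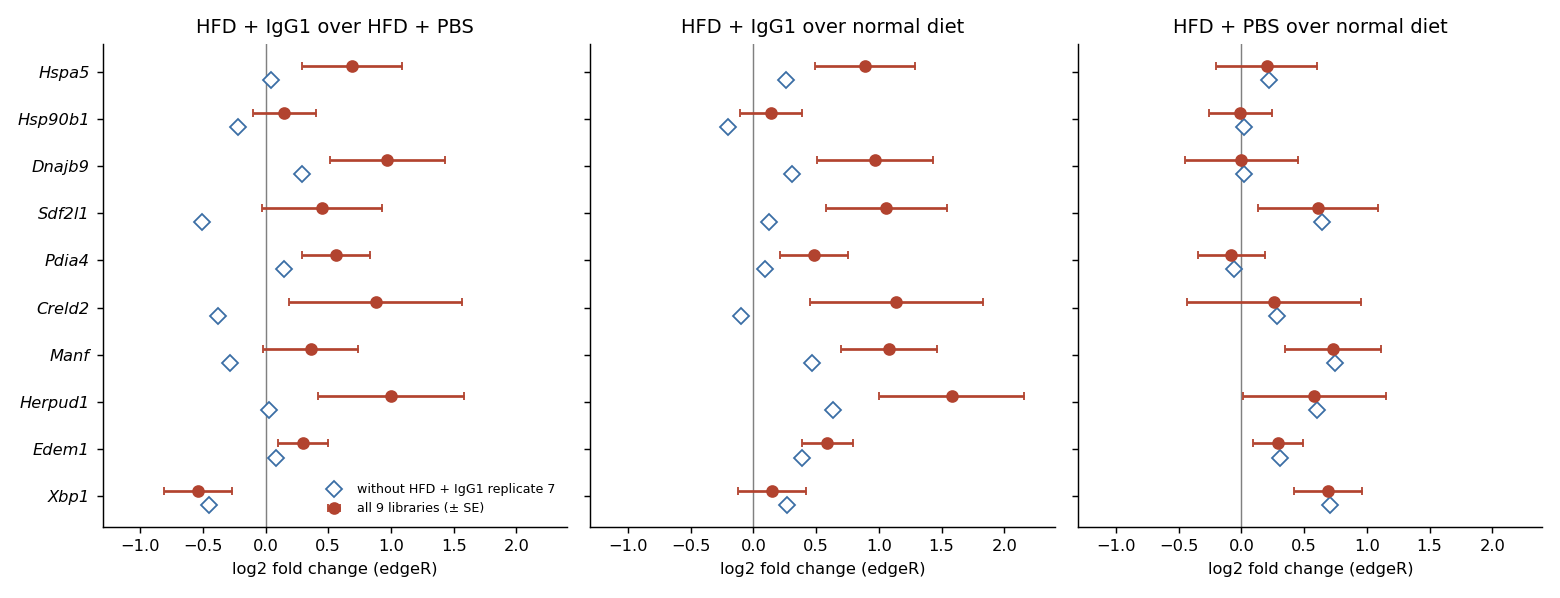
Log2 fold change of each gene (x axis) in the 3 comparisons, from edgeR; filled points with bars are estimates ± SE over all 9 libraries, and open diamonds are estimates without HFD + IgG1 replicate 7. In both comparisons that involve HFD + IgG1 the diamonds lie left of the points for every gene except Xbp1; for HFD + PBS over normal diet both sets lie together.

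Set against normal diet livers, HFD + IgG1 livers had positive fold changes for 10 of the 10 genes, with a median log2 fold change of 0.93, against 0.00 over all genes, and none passed an adjusted p of 0.05 in edgeR (0% of all genes did). At an unadjusted p under 0.05, 4 of the 10 were higher, against 3.83% of all genes: Edem1, Manf, Herpud1 and Hspa5. None was lower, against 3.21% of all genes. Edem1 averaged 368 ± 83.5 CPM in HFD + IgG1 and 244 ± 30.2 CPM in normal diet livers, a log2 ratio of 0.59 (SE 0.20, unadjusted p = 0.013, edgeR adjusted p = 0.603). Manf averaged 156 ± 92.7 and 73.6 ± 13.5 CPM in the same groups, at 1.08 on the log2 scale (SE 0.38, unadjusted p = 0.0188, edgeR adjusted p = 0.625). These 2 were also the genes whose 3 HFD + IgG1 livers all lay above the normal diet livers, as 5.54% of all genes did, while 0 of the 10 and 6.41% of all genes lay wholly below. For Herpud1, with 465 ± 386 CPM in HFD + IgG1 and 156 ± 52.7 CPM in normal diet livers, the log2 ratio was 1.58 (SE 0.58, edgeR adjusted p = 0.644). Hspa5 averaged 1877 ± 1137 CPM in HFD + IgG1 and 1014 ± 267 CPM in normal diet livers, at 0.89 (SE 0.40, unadjusted p = 0.0499, edgeR adjusted p = 0.708). Creld2 lay at 1.14 (SE 0.69), Sdf2l1 at 1.06 (SE 0.48), Dnajb9 at 0.97 (SE 0.46) and Pdia4 at 0.48 (SE 0.27), with edgeR adjusted p-values from 0.708 to 0.758. Hsp90b1 (0.14, SE 0.25) and Xbp1 (0.15, SE 0.27) had the smallest values. Without replicate 7 the median was 0.26 and 8 of the 10 were positive, with Edem1 at 0.39, Manf at 0.47, Herpud1 at 0.63 and Hspa5 at 0.26. At an unadjusted p under 0.05, 0 of the 10 were then higher and 0 lower, against 1.99% and 1.88% of all genes. Without the 3 discordant libraries the median was 1.00, and Manf had the smallest unadjusted p of the 10 (0.0222, edgeR adjusted p = 1).

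The diet comparison, HFD + PBS over normal diet, gave smaller values. Of the 10 genes, 7 had positive fold changes, with a median of 0.27, against -0.00 over all genes, and edgeR called none at an adjusted p of 0.05 (0% of all genes). Xbp1 was the 1 gene with an unadjusted p under 0.05 in the higher direction, which 9.41% of all genes reached, and 0 of the 10 were lower, against 11.4% of all genes. Xbp1 averaged 381 ± 130 CPM in HFD + PBS and 236 ± 46.7 CPM in normal diet livers, a log2 ratio of 0.69 (SE 0.27, unadjusted p = 0.0271, edgeR adjusted p = 0.193). This unadjusted p was above 0.05 in several fits with fewer livers. It was 0.129 without HFD + PBS replicate 4, where the log2 ratio was 0.41. Leaving out a normal diet liver gave 0.0572 (replicate 5) and 0.0994 (replicate 6). Leaving out the 3 discordant libraries gave 0.0905, with a log2 ratio of 0.80. With each library left out, the Xbp1 log2 ratio ranged from 0.41 to 0.9. Fewer livers alone can raise a p-value, so these p-values do not show that the difference rests on 1 liver. The groups overlapped for Xbp1, since HFD + PBS replicate 3 (276 CPM) lay below normal diet replicate 4 (280 CPM). All 3 HFD + PBS livers lay above the normal diet livers for Manf, Edem1 and Sdf2l1, as they did for 13% of all genes, and below them for none of the 10, against 15.3% of all genes. Sdf2l1 averaged 55.2 ± 11.9 CPM in HFD + PBS and 36.1 ± 3.01 CPM in normal diet livers, a log2 ratio of 0.61 (SE 0.48, edgeR adjusted p = 0.493), and Manf 122 ± 33.8 and 73.6 ± 13.5 CPM, at 0.73 (SE 0.38, edgeR adjusted p = 0.304). Herpud1 lay at 0.58 (SE 0.57), Edem1 at 0.29 (SE 0.20), Creld2 at 0.26 (SE 0.69), Hspa5 at 0.20 (SE 0.40), Dnajb9 at -0.00 (SE 0.45) and Pdia4 at -0.08 (SE 0.27), with edgeR adjusted p-values from 0.421 to 0.999. The Herpud1 value was 0.16 without HFD + PBS replicate 6 and 0.08 without the 3 discordant libraries. Hsp90b1 was also near 0, with 767 ± 50 CPM in HFD + PBS, 770 ± 60.8 CPM in normal diet livers and a log2 ratio of -0.01 (SE 0.25, edgeR adjusted p = 0.996). HFD + IgG1 replicate 7 takes part in this comparison only through the shared scaling and estimate of spread. Without it, Sdf2l1 was at 0.64 (unadjusted p = 0.00681, edgeR adjusted p = 0.151) and Manf at 0.75 (unadjusted p = 0.00974, edgeR adjusted p = 0.158). With Xbp1, 3 of the 10 then had an unadjusted p under 0.05 in the higher direction, against 10.2% of all genes. That liver was singled out for its levels of these genes, so leaving it out narrows their estimated spread in particular. The fold changes of Sdf2l1 and Manf hardly moved, and no conclusion is drawn from this count.

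Markers of other cell types also differed between these livers. Summed neutrophil markers (10 genes) were 4392, 477 and 1630 CPM in HFD + PBS and 217, 88.7 and 41.9 CPM in normal diet livers, and summed macrophage markers (12 genes) were 4083, 2974 and 3862 CPM in HFD + PBS and 2187, 2767 and 2094 CPM in normal diet livers. In HFD + IgG1 livers the neutrophil sums were 15.8, 678 and 23.8 CPM and the macrophage sums 865, 3327 and 1261 CPM. Plasma cells, which carry abundant ER, had marker sums of 219, 335 and 146 CPM in HFD + IgG1, 576, 816 and 463 CPM in HFD + PBS, and 430, 451 and 317 CPM in normal diet livers (10 genes). The lowest plasma cell sum was in HFD + IgG1 replicate 7 and the highest in HFD + PBS replicate 4. Derl3, a plasma cell marker that is also in the ERAD list used below, went the other way in replicate 7. It was at 16.2 CPM there, 1.99 log2 units above the median of the other 8 libraries (range 1.78 to 23.6 CPM). Pancreatic acinar markers, also of an ER-rich cell, were at 0 counts in every library for 11 of 18 genes and at no more than 3 counts in any library for 15 of 18. Cela1, the only acinar marker with enough counts to test, was present in every library, with 21.5 CPM in HFD + IgG1 replicate 5, its highest, and 10.3 CPM in replicate 7. The part of immune or acinar cells in the member values was not tested. HFD + PBS replicate 6 and normal diet replicate 5, the libraries with Xist counts, stood at the ends of their groups for several genes: the first was the highest HFD + PBS liver for 8 of the 10, and the second the lowest normal diet liver for 4. Without the 3 discordant libraries the diet median was 0.02, with Xbp1 at 0.80, Manf at 0.38, Edem1 at 0.32 and Sdf2l1 at 0.43.

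The other genes of the pathway were read from fixed lists, and none of their members passed an adjusted p of 0.05 in edgeR in any comparison. The upstream sensors come first. Of 6 sensor and protease genes, 2 were highest in HFD + IgG1 replicate 7 (33.3%, against 18% of all genes), Eif2ak3 and Atf6b. Eif2ak3, which encodes PERK, had 25.4, 22.8 and 43.8 CPM in HFD + IgG1, 21.7, 24.8 and 25.3 CPM in HFD + PBS, and 20.4, 18.3 and 15.7 CPM in normal diet livers. Its log2 ratio of HFD + IgG1 over normal diet was 0.76 (SE 0.24, unadjusted p = 0.00991, edgeR adjusted p = 0.6), and 0.40 without replicate 7. Ern1, which encodes IRE1 alpha, had 95.8, 102 and 82 CPM in HFD + IgG1, 70.5, 95 and 59.8 CPM in HFD + PBS, and 88.1, 75.5 and 104 CPM in normal diet livers, with no group apart. Atf6 was at 129 CPM in replicate 7, inside the range of the other 8 (90.9 to 161 CPM). Its HFD + IgG1 livers (146, 125 and 129 CPM) all lay above its HFD + PBS livers (90.9, 123 and 106 CPM). The log2 ratio was 0.32 (SE 0.21, edgeR adjusted p = 0.357). The protease gene Mbtps1 also lay wholly higher in HFD + IgG1 than in HFD + PBS. That makes 2 of the 6 genes, against 15.3% of all genes, and 0 lay wholly lower, against 11.2%.

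In the wider ER folding list of 22 genes, 14 were highest in replicate 7 (63.6%, against 18% of all genes). The list median there was 0.37 log2 units above the median of the other 8 libraries, against 1.50 for the 10 genes and 0.03 for all genes tested. Hyou1 (GRP170), a nucleotide exchange factor of BiP, had 372, 302 and 718 CPM in HFD + IgG1, 223, 184 and 308 CPM in HFD + PBS, and 359, 166 and 208 CPM in normal diet livers. Calreticulin (Calr), a lectin chaperone, was at 1082 CPM in replicate 7 and 694 to 885 CPM in the others, while the disulfide isomerase P4hb was at 1797 CPM there and higher, at 1868 CPM, in normal diet replicate 5. For HFD + IgG1 over HFD + PBS, 4 of the 22 had an unadjusted p under 0.05 in the higher direction (12.6% of all genes did) and 0 in the lower; Txndc5, a thioredoxin-domain isomerase, led with a log2 ratio of 0.50 (SE 0.16, edgeR adjusted p = 0.141), and 0.33 without replicate 7. Without that liver 0 of the 22 had an unadjusted p under 0.05 in the higher direction, against 6.86% of all genes. The list medians were 0.20 in that comparison, 0.16 for HFD + IgG1 over normal diet and -0.03 for HFD + PBS over normal diet. ERSE matched 5 of the 19 windows in this list (26.3%), those of Calr, Canx, Pdia6, Ero1b and Dnajc3.

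Of 18 other ERAD genes, 12 were highest in replicate 7 (66.7%, against 18% of all genes). Syvn1, the Hrd1 ubiquitin ligase that Herpud1 joins, had 100, 73.9 and 302 CPM in HFD + IgG1, 61.9, 76.3 and 124 CPM in HFD + PBS, and 105, 59.4 and 77.7 CPM in normal diet livers, and its promoter window holds an ERSE match. Sel1l, its adaptor, was at 399 CPM in replicate 7 and 165 to 279 CPM in the others. The ATPase Vcp, which pulls ERAD clients from the membrane, averaged 321 ± 45.3 CPM in HFD + IgG1, 230 ± 13.2 CPM in HFD + PBS and 336 ± 26.5 CPM in normal diet livers. Its log2 ratio was 0.48 for HFD + IgG1 over HFD + PBS (SE 0.16, edgeR adjusted p = 0.145) and -0.54 for HFD + PBS over normal diet (SE 0.16, edgeR adjusted p = 0.132), comparisons that share the HFD + PBS livers. Its partner Nploc4 lay at 0.46 (SE 0.17) and -0.65 (SE 0.17) in the same comparisons. In HFD + IgG1 over HFD + PBS, 5 of the 18 had an unadjusted p under 0.05 in the higher direction, against 12.6% of all genes, and all 18 were positive, against 7791 of all 14763 genes, with a median of 0.31. Without replicate 7, 0 of the 18 had such a p (6.86% of all genes did) and the median was 0.10. Of the 18, 13 were then positive, against 7034 of all 14758 genes then tested.

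The translocation and export list, 27 genes that carry proteins into and out of the ER, had 21 genes highest in replicate 7 (77.8%, against 18% of all genes). For HFD + IgG1 over normal diet, 26 of the 27 were positive, against 7437 of all 14763 genes. Of the 27, 10 had an unadjusted p under 0.05 in the higher direction (3.83% of all genes did), with a median log2 fold change of 0.31. Without replicate 7, 24 of the 27 were positive, against 7117 of all 14758 genes then tested. At that threshold 3 were then higher (1.99% of all genes were) and the median was 0.14. Spcs2, a signal peptidase subunit, had 125, 140 and 158 CPM in HFD + IgG1, 135, 134 and 130 CPM in HFD + PBS, and 101, 86 and 78.9 CPM in normal diet livers. Every fat-fed liver was above every normal diet liver for Spcs2, with a log2 ratio of 0.67 for HFD + IgG1 (SE 0.15, edgeR adjusted p = 0.426) and 0.58 for HFD + PBS (SE 0.15, edgeR adjusted p = 0.104), both over normal diet. Sec23b, a coat protein of the vesicles that leave the ER, had 75.4, 53.4 and 109 CPM in HFD + IgG1, 48, 45.7 and 48.4 CPM in HFD + PBS, and 49, 30.1 and 30.7 CPM in normal diet livers.

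The PERK and ATF4 arm was divided. Of 12 genes, 3 were highest in replicate 7 (25%), a share near the 18% of all genes. The list median there was 0.15 log2 units above the other 8. For HFD + IgG1 over HFD + PBS, 3 of the 12 had an unadjusted p under 0.05 in the lower direction (11.6% of all genes did). In the higher direction 1 did, against 12.6% of all genes. Without replicate 7, 2 were lower at that threshold (5.83% of all genes were) and 0 higher (6.86%). Ddit3, which encodes CHOP, a factor linked to cell death under prolonged ER stress, had 4.28, 5.72 and 32.9 CPM in HFD + IgG1, 4.33, 1.66 and 6.34 CPM in HFD + PBS, and 3.72, 5.34 and 4.5 CPM in normal diet livers. Atf4 mRNA was at 190 CPM in replicate 7 and 54.7 to 101 CPM in the others. Asns was also highest in replicate 7, at 10.9 CPM, against 0.334 to 10 CPM in the other 8. Trib3 and Chac1, both known ATF4 or CHOP targets, were not high there, at 5.19 and 2.23 CPM, against 4.85 to 11.5 CPM and 1.37 to 21.7 CPM in the other 8. Ddit4, a stress-induced inhibitor of mTORC1, had 7.85, 13.1 and 23.4 CPM in HFD + IgG1 and 24.6, 210 and 50 CPM in HFD + PBS. Normal diet livers had 3.11, 3.9 and 4.62 CPM. Its log2 ratio was 4.61 for HFD + PBS over normal diet (SE 0.86, edgeR adjusted p = 0.078). For HFD + IgG1 over HFD + PBS, which shares the HFD + PBS livers, it was -2.68 (SE 0.78, edgeR adjusted p = 0.14). The highest Ddit4 liver, HFD + PBS replicate 4, was also the one with the most Xbp1. In HFD + IgG1 replicate 7 Ddit4 was 1.17 log2 units above the median of the other 8.

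**Figure D3:**
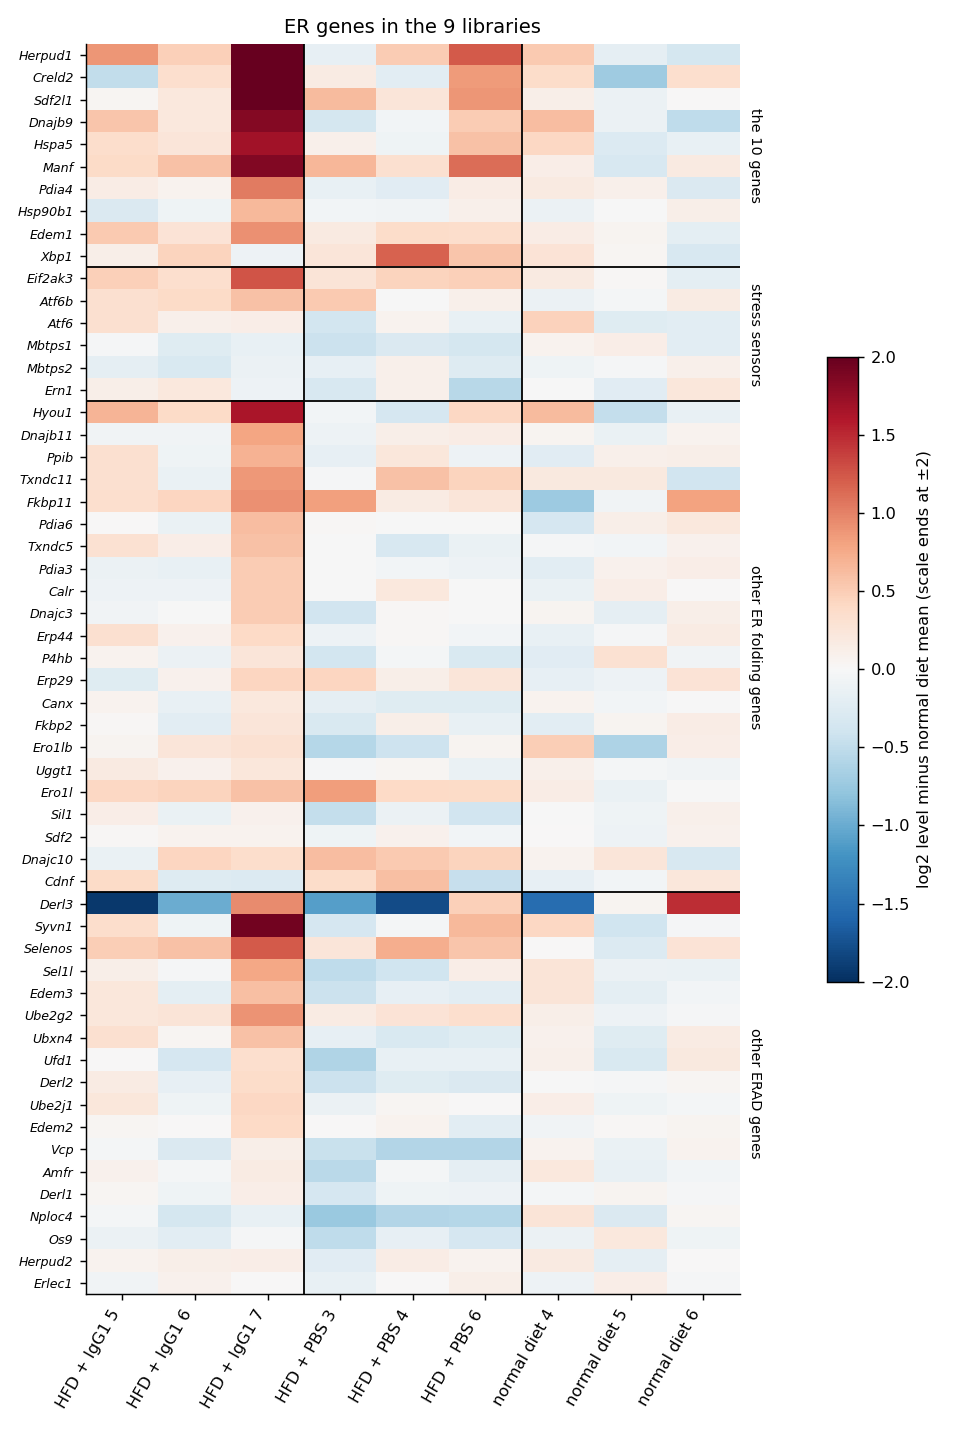
Heat map of the 10 genes and of the sensor, ER folding and ERAD lists (rows) in the 9 libraries (columns); colour is the log2 level minus the normal diet mean of that gene, red higher and blue lower, with the scale ending at ±2. The HFD + IgG1 replicate 7 column is the reddest for 9 of the 10 genes and paler in the lists below them, and the Xbp1 row is reddest in HFD + PBS replicate 4.

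**Figure D4:**
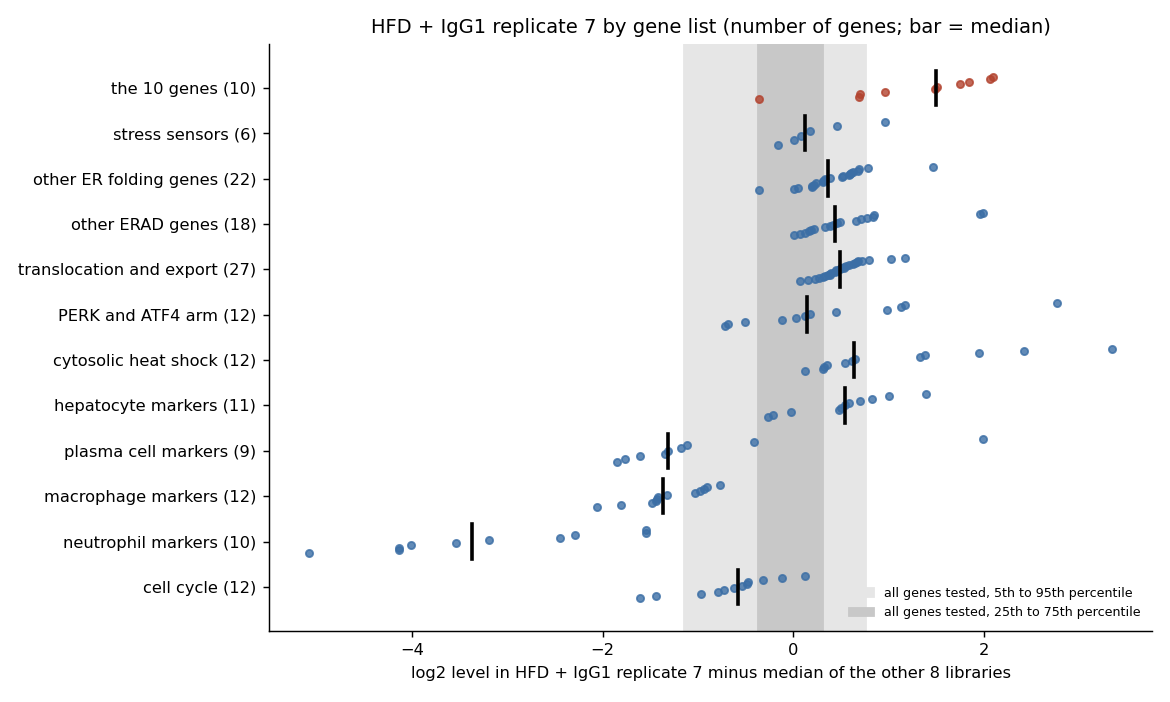
Log2 level in HFD + IgG1 replicate 7 minus the median of the other 8 libraries (x axis) for each tested gene (points) of each list (rows); bars are list medians, and the shaded bands span the 5th to 95th percentile (-1.15 to 0.76) and the 25th to 75th percentile (-0.37 to 0.31) of all 14763 genes. The bar of the 10 genes is at 1.50, those of the other ER lists are between 0.13 and 0.49, and those of the neutrophil, macrophage and plasma cell markers are below -1.

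How closely the 10 genes followed each other was lower for most of them without the same liver. The Pearson correlation of each gene with the mean of the other 9 over the 9 libraries was 0.96 for Hspa5 and Herpud1, 0.93 for Sdf2l1, 0.90 for Manf and 0.89 for Dnajb9, 0.86 for Pdia4, 0.85 for Edem1 and Creld2, and 0.71 for Hsp90b1. Over the 8 libraries without replicate 7 it was 0.87 for Herpud1, 0.82 for Hspa5, 0.73 for Manf, 0.68 for Sdf2l1, 0.62 for Dnajb9 and 0.61 for Edem1, and 0.45 for Creld2, 0.35 for Pdia4 and -0.21 for Hsp90b1. Xbp1 had -0.15 with and 0.40 without replicate 7. Of 8330 genes with a mean of at least 10 CPM, the one most like the average of the 10 was Ube2g2, a ubiquitin-conjugating enzyme of ERAD, with a Pearson r of 0.977 over the 9 libraries and 0.900 without replicate 7. Piga, which acts in the first step of GPI anchor synthesis at the ER, followed at 0.949 and 0.923, and Eif2ak3 at 0.949 and 0.825. Nifk (0.945 and 0.707), Mphosph8 (0.945 and 0.778) and Arfip2 (0.939 and 0.909) came next. Syvn1 was seventh among the 10 most alike, at 0.937 and 0.721, before Blzf1, Tmem39a and Zfp330. Piga, Nifk, Mphosph8, Arfip2, Blzf1, Tmem39a and Zfp330 were in none of the gene lists read here. These genes were selected for their likeness, so the correlations describe them and carry no test.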

How the data were processed

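Liver RNA libraries of 9 mice were made from 1 µg of Trizol RNA with a NEBNext Ultra kit, per the labels' protocols. The authors deposited raw whole-number counts per Ensembl gene ID. For their making, mm10 and Bowtie 0.12.2 are named in the submitters' processing notes, without a role; counter, annotation and strand setting were not given in the sources used here. Names, coordinates and exon lengths came from GENCODE M21 (GRCm38), which named 54495 of 54532 IDs. In R 4.3.3, edgeR 4.0.16 was fitted to the whole table (TMM factors, filterByExpr with minimum count 10 and minimum total 15, 3 group means, robust quasi-likelihood F test, two-sided, Benjamini-Hochberg over 14763 genes, threshold 0.05; biological coefficient of variation 0.318). The SE was the absolute unshrunk log2 ratio divided by the root of F. CPM values use TMM-scaled totals, log2 levels a pseudocount of 0.5 CPM. Alternatives were DESeq2 1.42.0, limma-voom (3.58.1), other scaling factors and filters, a replicate block, and libraries left out. The workflow was tested on simulated counts with the spread of each gene as fitted here. Of 100 simulated 2-fold changes, it called 10 for HFD + PBS over normal diet. It called 22 for HFD + IgG1 over HFD + PBS and 19 for HFD + IgG1 over normal diet. Of 100 simulated 4-fold changes it called 70, 69 and 67 in the same order. A gene that is not called may thus still differ by 2-fold. The 10 genes and all lists were chosen with earlier results of these data known. Beyond the 10 genes, those with the 4 smallest p of a list in a comparison were to be named. Calr, P4hb, Sel1l, Atf4, Asns and Trib3 were chosen after their values were seen. Nothing says how many cages or batches the livers came from, so p-values measure the spread between these samples. Protein sequences were not used here.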

Additional observations from a re-analysis of the deposited data

How the results depend on the processing

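No setting called any of the 10 genes in any comparison, and no scaling moved the median of all genes by more than 0.1. Of the members' log2 fold changes under the alternatives, 525 kept their direction and 45 did not. Precision is limited by 3 livers a group and by the spread between them. The count of genes called over the whole table depended on the tool: for HFD + IgG1 over HFD + PBS it was 0 in edgeR, 1265 in DESeq2, 57 with no filter on low counts and 0 to 2356 with each library left out (2356 without HFD + IgG1 replicate 6); for HFD + IgG1 over normal diet 0, 111, 6, 3 with only the 6 libraries compared, and 0 to 6 with each left out; for HFD + PBS over normal diet 0, 1184 (531 higher, 653 lower), 274, 184 with only the 6 libraries, 2 without the 3 discordant libraries, and 0 to 576 with each left out (576 without HFD + IgG1 replicate 6). limma-voom called 0 genes in all 3. The cause was not tested.

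With each library left out, the median of the 10 genes ranged from -0.10 to 0.74 for HFD + IgG1 over HFD + PBS, 0.26 to 1.20 for HFD + IgG1 over normal diet, and 0.07 to 0.47 for HFD + PBS over normal diet. Gene values that changed sign ranged, for HFD + IgG1 over HFD + PBS, from -0.22 to 0.28 (Hsp90b1), -0.28 to 0.59 (Manf), -0.51 to 0.74 (Sdf2l1) and -0.38 to 1.26 (Creld2); for HFD + IgG1 over normal diet, from -0.20 to 0.30 (Hsp90b1), -0.01 to 0.31 (Xbp1) and -0.10 to 1.54 (Creld2); and for HFD + PBS over normal diet, from -0.02 to 0.47 (Hspa5), -0.06 to 0.05 (Hsp90b1), -0.27 to 0.41 (Dnajb9), -0.09 to 0.49 (Creld2) and -0.21 to 0.04 (Pdia4). For HFD + PBS over normal diet, Hsp90b1 turned from -0.01 to 0.02 with DESeq2, RLE factors and no filter, 0.05 with upper-quartile factors, 0.04 with at least 1 CPM in 3 libraries and 0.01 with only the 6 libraries; Dnajb9 to 0.02, 0.02, 0.02, 0.06, 0.04 and 0.01 in the same settings and 0.03 with limma-voom; and without the 3 discordant libraries Hspa5 was at -0.12 and Creld2 at -0.34.

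The numbers do not pair the samples: same-numbered samples had correlations of deviations from -0.494 to 0.007. With the replicate number as a block, the median for HFD + IgG1 over HFD + PBS was -0.14, with Hsp90b1 at -0.24, Manf -0.18, Sdf2l1 -0.44, Creld2 -0.10 and Herpud1 -0.18; for HFD + IgG1 over normal diet Hsp90b1 was at -0.24 and Creld2 at -0.05; and for HFD + PBS over normal diet Dnajb9 was at 0.24. In this fit HFD + IgG1 replicate 7 and HFD + PBS replicate 3 have no same-numbered partner and so do not inform the comparisons. The block called 0 genes in all 3 comparisons.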

Other observations

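Cytosolic heat shock genes, which serve protein folding outside the ER, were also high in HFD + IgG1 replicate 7 in part: 6 of 12 were highest there (50%, against 18% of all genes), and the list median was 0.64 log2 units above the other 8 libraries. Bag3, a co-chaperone of cytosolic Hsp70, had 37.7, 26.5 and 92 CPM in HFD + IgG1, 23.7, 19.5 and 23.2 CPM in HFD + PBS, and 31.1, 20.5 and 23.1 CPM in normal diet livers. The stress-inducible Hsp70 gene Hspa1b was at 54.9 CPM in replicate 7 and 2.5 to 10.4 CPM in the others, with reads that may be shared with the near-identical Hspa1a. For HFD + PBS over normal diet, 4 of these 12 genes had an unadjusted p under 0.05 in the lower direction (11.4% of all genes did): Hspb1 (log2 fold change -1.73, edgeR adjusted p = 0.078), Hsp90aa1 (-0.93, edgeR adjusted p = 0.166), Hsp90ab1 (-0.46, edgeR adjusted p = 0.217) and the mitochondrial chaperonin Hspd1 (-0.48, edgeR adjusted p = 0.206).

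In HFD + IgG1 replicate 7, 0 of the 9 tested plasma cell, 10 neutrophil, 12 macrophage and 12 cell cycle genes were highest, with list medians of -1.31, -3.37, -1.37 and -0.58 log2 units relative to the other 8 libraries. Hepatocyte markers had 5 of 11 highest there (45.5%), with a median of 0.54. What these levels contribute to the ER chaperone values of that liver was not tested.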
